A study of Mus musculus with 6 samples.

Results

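Long intergenic noncoding RNAs (lincRNAs) of the autosomes were compared between 3 libraries from female and 3 from male mice, cultures that carry the label of aortic endothelial cells. Of 54532 gene rows in the deposited count table, 5559 carried the class lincRNA, 4915 of them on chromosomes 1 to 19, and 1613 of those had a count in some library. A mean of at least 50 counts over the 6 libraries was reached by 121. H19 and Meg3, RNAs of imprinted loci, were set aside by name, as was Rian, which the table classes as a processed transcript, and 119 lincRNAs were left. The members were thus selected on their mean counts, which are given below as a description. The members just inside the limit were D330050G23Rik, Gm36899 and Ino80dos with mean counts of 51.0, 50.3 and 50, and the rows just outside it were Gdap10, Gm26902 and Gm46404 with mean counts of 49.2, 48.8 and 48.8.

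The female group held libraries of untreated wild-type cells from aortas of female mice and the male group libraries of untreated wild-type cells from aortas of male mice. Both were primary cultures kept in a serum medium with heparin and growth factors for endothelial cells. Strain, age and the number of animals are not given in the labels. Nothing says that the 3 libraries of a sex are from different animals or cultures, and p-values then cover no more than the spread among these 6 samples, possibly a technical one. RNA was poly-A selected, so transcripts without a poly-A tail, including any of a member, fall outside the measurement.

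A lincRNA is a transcript that is spliced and polyadenylated much like a messenger RNA but has no annotated protein and lies outside the protein-coding genes. Some act as scaffolds of nuclear bodies, some bind proteins or microRNAs in the cytoplasm, some are the precursors from which microRNAs or small nucleolar RNAs (snoRNAs) are cut, and for others only the act of transcription beside a neighbouring gene has been linked to a function. In blood vessels, Malat1 has been linked to endothelial growth and Carmn to the contractile state of smooth muscle.

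The libraries held 21527195, 17410996 and 22993574 counts in female cells and 20980254, 22897700 and 18138999 counts in male cells. Levels are given as CPM (a count divided by the TMM-scaled library total, in units of 1e6), and a count of 0 in a library allows up to 0.128 to 0.171 CPM, taking 3 counts as the floor, which covers counting error only. The X-linked Xist and 4 Y-linked genes followed the labelled sex in all 6 libraries. The labelled cell type did not show its markers. All 10 endothelial genes examined were under 1 CPM, with a summed level of 1.5 to 2.03 CPM in the female and 1.37 to 1.84 CPM in the male libraries, and Cdh5, Tie1, Cldn5 and Robo4 had 0 counts. The 8 fibroblast genes summed to 7422 to 7916 CPM in the female and 5328 to 5828 CPM in the male libraries, with 4 higher and 2 lower in female cells. The 5 smooth muscle genes summed to 114 to 117 CPM in the female and 138 to 173 CPM in the male libraries. Most of that was Smtn, which was not called, with means of 112 CPM in female and 130 CPM in male cells. Acta2 was called lower in female cells, with means of 3.23 against 20.4 CPM. The 5 macrophage and leukocyte genes summed to 12.7 to 18.1 CPM in the female and 6.30 to 10.3 CPM in the male libraries. Most of that was Lyz2, called higher in female cells with means of 12.7 against 5.23 CPM, and Ptprc had 0 counts. The 5 mesothelial genes summed to 0.957 to 2.09 CPM in the female and 1.60 to 3.19 CPM in the male libraries. The part of these differences in the results below was not tested, and in bulk RNA fewer cells of a type and less RNA per cell cannot be told apart. Male replicate 3 stood apart from the other males, with correlations of log2 CPM of 0.974 and 0.982 with them, against at least 0.990 among the females and 0.992 between male replicates 1 and 2. Results that rest on it are given with and without it.

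The 119 lincRNAs took a small share of the counts, 0.351%, 0.329% and 0.311% in the female and 0.320%, 0.334% and 0.277% in the male libraries. These ranges overlapped. Malat1 and Neat1 alone made up much of the share, and without them it stood at 0.195%, 0.192% and 0.187% in female and 0.178%, 0.177% and 0.161% in male libraries. Every female library was then above every male library, with a gap between the sexes that was smaller than the one between male replicates 2 and 3. The share is a sum in which rows with many counts, such as Gm42047, weigh most. The median log2 fold change of female over male was -0.06 over the members.

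In the annotation, 118 of the 119 had the same position in GENCODE M21 on GRCm38 as in the deposited table. The summed exon length had a median of 2639 bases, from 384 bases in Gm10076 to 20771 bases in Neat1. There were 23 members with a single exon and 96 with 2 or more exons, and 48 overlapped another annotated gene on either strand. RefSeq matched 82 of them by symbol or synonym, and it classes 71 as long noncoding RNA, 8 as protein-coding, 1 as a pseudogene and 2 as transcribed pseudogenes. Thus 1810058I24Rik, Gm37494, Tmem250-ps, Gm46430, D930016D06Rik, 6330403K07Rik, Gm38399 and Zfp469 are listed as lincRNAs here and as protein-coding genes in RefSeq.

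Of the 10 most abundant members, Malat1, Neat1, 2900097C17Rik and 1700020I14Rik are well-studied long noncoding RNAs. Malat1 (chr19:5795690-5802672, minus strand), the long RNA of nuclear speckles, stood at 1107, 943 and 846 CPM in the female and 1035, 1019 and 645 CPM in the male libraries. The groups overlapped, and only male replicate 3 lay under all females. Its log2 fold change of female over male was 0.10 ± 0.19 (SE), with an edgeR adjusted p of 0.774, and the sign turned to -0.09 without male replicate 3. Neat1 (chr19:5824708-5845478, minus strand), the scaffold of paraspeckles, stood at 426, 393 and 372 CPM in the female and 410, 564 and 552 CPM in the male libraries. Male replicate 1 lay within the female range and the other males above it (log2 fold change -0.36 ± 0.14, adjusted p = 0.119 in edgeR). With 1 library left out the adjusted p ran from 0.0148 without male replicate 1 to 0.334 without male replicate 2, and was 0.0467 without male replicate 3.

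Next by level was 2900097C17Rik (chr2:156388065-156392979, minus strand), which RefSeq names Norad, a cytoplasmic RNA known for binding Pumilio proteins. It stood at 380, 373 and 378 CPM in the female and 418, 411 and 347 CPM in the male libraries. The female libraries lay between male replicate 3 and the other males (log2 fold change -0.06 ± 0.11, adjusted p = 0.782 in edgeR). Another of the top 10, 1700020I14Rik, is Oip5os1 in RefSeq, also known as Cyrano, the RNA that directs the decay of miR-7. It had 94.3, 83.7 and 83.5 CPM in the female and 128, 120 and 78.5 CPM in the male libraries. Male replicate 3 was the lowest of the 6 and the other males the highest, so the log2 fold change of -0.32 ± 0.17 was not called with all libraries (adjusted p = 0.26 in edgeR) and was -0.51 without male replicate 3 (adjusted p = 0.000216 in edgeR).

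The only member of the top 10 whose level differed between the sexes by the test was Gm42047 (chr8:121833247-121841178, plus strand), a predicted gene of 5647 bases that lies inside the span of Gm20388 on the same strand. It had 268, 241 and 228 CPM in the female and 183, 178 and 141 CPM in the male libraries, with no overlap between the sexes. It rose by 0.55 ± 0.13 on the log2 scale (adjusted p = 0.0146 in edgeR), but the adjusted p was 0.0863 without female replicate 1 and 0.0664 without female replicate 2. Of the others in the top 10, Gm26917 averaged 69.8 ± 23.9 CPM in the female and 65.5 ± 25.4 CPM in the male libraries (SD, n = 3 each), the widest spread within a sex among them. 5031425E22Rik averaged 77.1 ± 12 CPM in the female and 57.5 ± 12.6 CPM in the male libraries, Gm37494 47.4 ± 7.19 CPM in female and 53.2 ± 11.4 CPM in male cells, and Tmem250-ps 45.9 ± 6.17 CPM in female and 48.5 ± 6.49 CPM in male cells. None of these 4 passed the test. 1810058I24Rik had 55.6, 58.6 and 59.8 CPM in the female and 42.1, 45.7 and 71.7 CPM in the male libraries. Male replicate 3 was the highest of the 6 and the other males the lowest, and the member was called higher only without male replicate 3 (log2 fold change 0.40, adjusted p = 0.00443 in edgeR).

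Divided by length, the order changed. Malat1 stayed first with 138 CPM per kb in female and 129 CPM per kb in male libraries. The short pseudogene row Gm10076 ranked 3 per kb and the snoRNA host Snhg6 ranked 5, although their ranks by CPM were 16 and 13. Neat1, rank 2 by CPM, had rank 8 per kb with 19.1 CPM per kb in female and 24.5 CPM per kb in male libraries. Its row joins 4 annotated transcripts under 1 length of 20771 bases. Which of them the reads came from was not measured, and the rank per kb rests on that length.

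**Figure D1:**
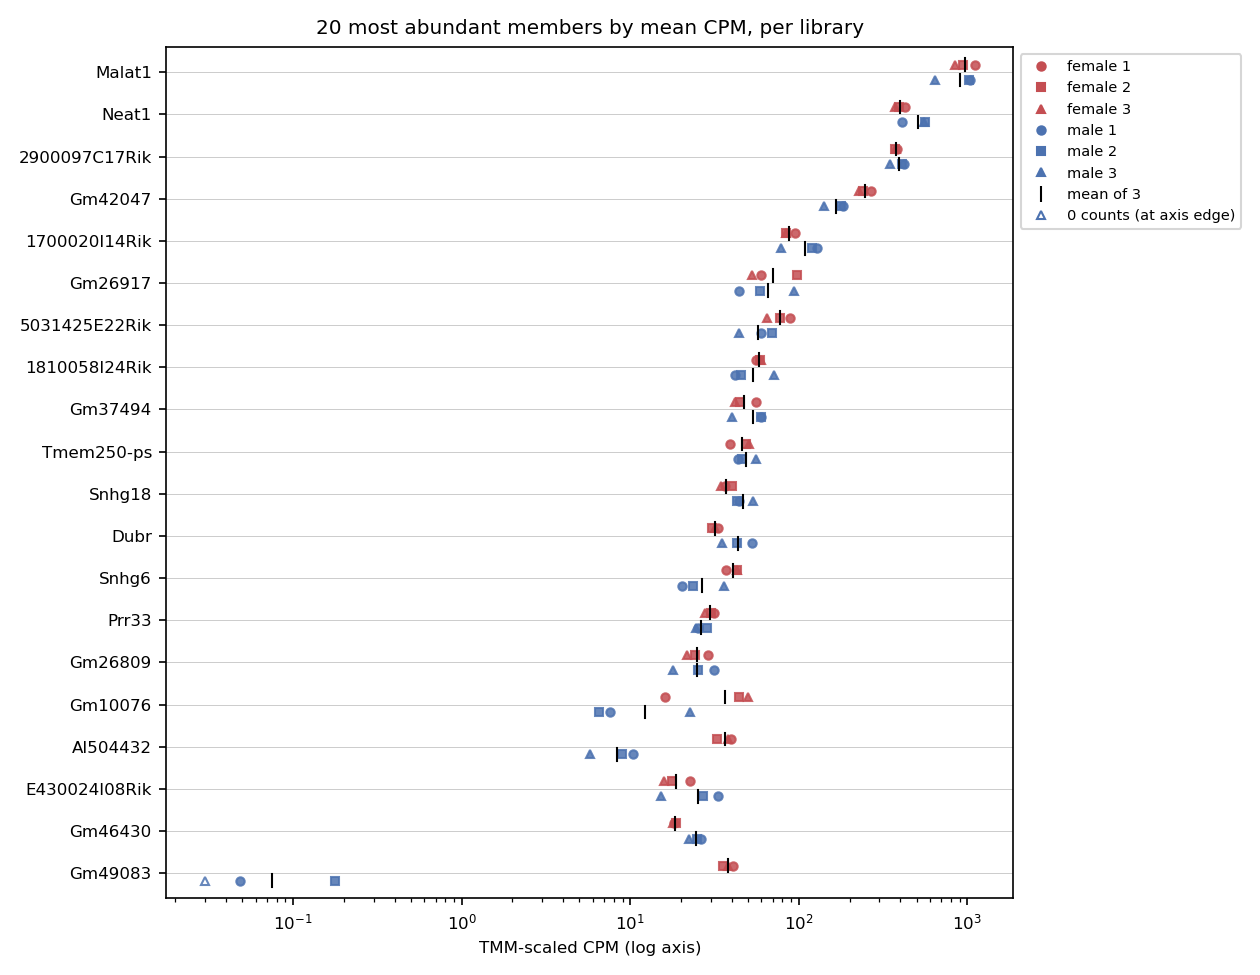
TMM-scaled CPM on a log axis for the 20 most abundant members, 1 marker per library (female in red above male in blue on each line, bar at the mean of 3). Levels span from 1107 CPM for Malat1 in female replicate 1 to a count of 0 for Gm49083 in male replicate 3, drawn hollow at the axis edge, and the sexes overlap for most of the first 10.

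By edgeR's quasi-likelihood test with Benjamini-Hochberg adjustment over all 14932 tested genes, 33 of the 119 members were called at an adjusted p under 0.05, which is 27.7%, against 18.3% of all tested genes. There were 15 members higher in female cells (12.6%, against 9.68% of all tested genes) and 18 lower (15.1%, against 8.62%). Among the calls, 20 were at least 2-fold, 11 higher and 9 lower, which is 16.8% of the members and compares with 10.3% of all tested genes. The choice of members bears on these shares, since a lincRNA near the limit could reach a mean of 50 counts through the sex in which it was high. Of the 95 members with a mean of at least 50 counts in each sex, 19 were called (20%), against 17% of the 11382 tested genes that met the same condition. Of these 95, 9 were higher (9.47%, against 9.17% of those genes) and 10 lower (10.5%, against 7.87%). These shares lie close together. Of the other 24 members, 6 were higher and 8 lower, all of them at least 2-fold. Among the 95 only 5 higher and 1 lower were at least 2-fold. Most of the 2-fold calls thus came from members where the choice of members bears on the call.

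The median size of the log2 fold change was 0.398 over the members and 0.263 over all tested genes, with a median SE of 0.243 and 0.179. With a mean of at least 50 counts in each sex these sizes were 0.358 and 0.212, with a median SE of 0.228 and 0.154. The median coefficient of variation was 15.2% over all members against 10.2% over all tested genes in female libraries, and 21.1% against 17.7% in male libraries. The median log2 fold change was -0.06 over the members and -0.01 over all tested genes. The libraries of the sexes did not overlap for 46 members (38.7%, against 35.9% of all tested genes), 21 higher and 25 lower, a share near the background. Tested antisense, processed transcript and other noncoding RNA genes with a mean of at least 50 counts were called in 13.4% of 224 cases, and tested protein-coding genes with that mean in 19.7% of 11182 cases.

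Calls were spread over most chromosomes. Chromosomes 1 and 5 held the most members, 11 each, with 2 higher and 2 lower on chromosome 1 and 2 higher and none lower on chromosome 5, and chromosome 16 held 4 members and no call. Of the 23 single-exon members 1 was higher and 6 were lower (30.4% called). Of the 96 members with more exons 14 were higher and 12 lower (27.1% called). Of the 71 members that overlapped no other gene 7 were higher and 14 lower (29.6% called). Of the 48 that overlapped one 8 were higher and 4 lower (25% called). These shares lie near the 27.7% of all members, against 18.3% of all tested genes. Neither split was tested, nor was the direction of the calls within it.

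The member with the widest gap was Gm49083 (chr14:43804696-43812383, minus strand), a predicted gene of 2 exons near the ribonuclease gene Ear1. It had 890, 628 and 888 counts in the female and 1, 4 and 0 counts in the male libraries, or 40.7, 35.3 and 38.0 CPM in the female and 0.0484, 0.177 and 0 CPM in male cells. The female libraries lay close together and all 3 male libraries were at or near the floor. The fitted log2 fold change was 8.76 ± 0.35 (adjusted p = 5.15e-07 in edgeR), a size that rests on the few male counts. By CPM its rank among the 119 members was 12 in female cells and 119 in male cells. Ear1 itself was at 0.421 CPM in the female and 0.393 CPM in the male libraries, too low to be tested.

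Ptgs2os2 and AI504432 rose beside genes of known function. Ptgs2os2 (chr1:150159043-150164948, minus strand), known as lincRNA-Cox2 for its position by the cyclooxygenase gene and described in mouse macrophages as a regulator of immune genes, had 9.33, 5.85 and 11.1 CPM in the female and 1.36, 1.63 and 1.42 CPM in the male libraries. All females were well above all males (log2 fold change 2.57 ± 0.28, adjusted p = 0.000172 in edgeR). AI504432 (chr3:107039504-107054347, plus strand) lies downstream of the potassium channel gene Kcna3. It had 39.5, 32.6 and 37.9 CPM in the female and 10.3, 8.88 and 5.75 CPM in the male libraries, again without overlap (log2 fold change 2.14 ± 0.21, adjusted p = 7.29e-05 in edgeR).

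E330013P04Rik (chr19:60144675-60162591, plus strand) had 23.3, 17.2 and 18.9 CPM in the female and 5.13, 5.17 and 3.87 CPM in the male libraries. It rose by 2.06 ± 0.19 on the log2 scale (adjusted p = 5.04e-05 in edgeR). AU020206 (chr7:75769038-75782099, minus strand) had 15.9, 17.6 and 20.9 CPM in the female and 6.59, 6.32 and 6.04 CPM in the male libraries, with the male libraries close together (log2 fold change 1.52 ± 0.16, adjusted p = 0.000128 in edgeR). 6330403K07Rik (chr11:71031941-71033513, minus strand), one of the rows that RefSeq lists as protein-coding, had 17, 16.1 and 18.6 CPM in the female and 5.33, 4.24 and 7.17 CPM in the male libraries (log2 fold change 1.64 ± 0.20, adjusted p = 0.000368 in edgeR). In all 3 of these the sexes were clearly apart.

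Gm40841 (chr13:28394453-28420066, minus strand) averaged 6.89 ± 0.192 CPM in the female and 1.32 ± 0.393 CPM in the male libraries (SD, n = 3 each), Gm16907 (chr13:63289601-63297147, minus strand) 9.72 ± 2.86 CPM in the female and 2.18 ± 0.916 CPM in the male libraries, and Gm48898 (chr12:8291024-8293694, minus strand) 5.00 ± 1.20 CPM in the female and 1.33 ± 0.458 CPM in the male libraries. Their log2 fold changes were 2.38, 2.14 and 1.93, with edgeR adjusted p-values of 0.000191, 0.00164 and 0.00245. These 9 members, from Gm49083 to Gm48898, kept their call whichever library was left out. Of them, Gm49083, Ptgs2os2, Gm40841, Gm16907 and Gm48898 averaged under 50 counts in male cells, where the choice of members bears on the call. The other 6 that rose had smaller log2 fold changes, from 0.55 for Gm42047 through 0.87 for both Gm17275 and Gm34934, 1.00 for Gm10419 and 1.05 for 5930430L01Rik to 1.23 for 1700048O20Rik, and each lost its call when 1 or another library was left out.

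**Figure D2:**
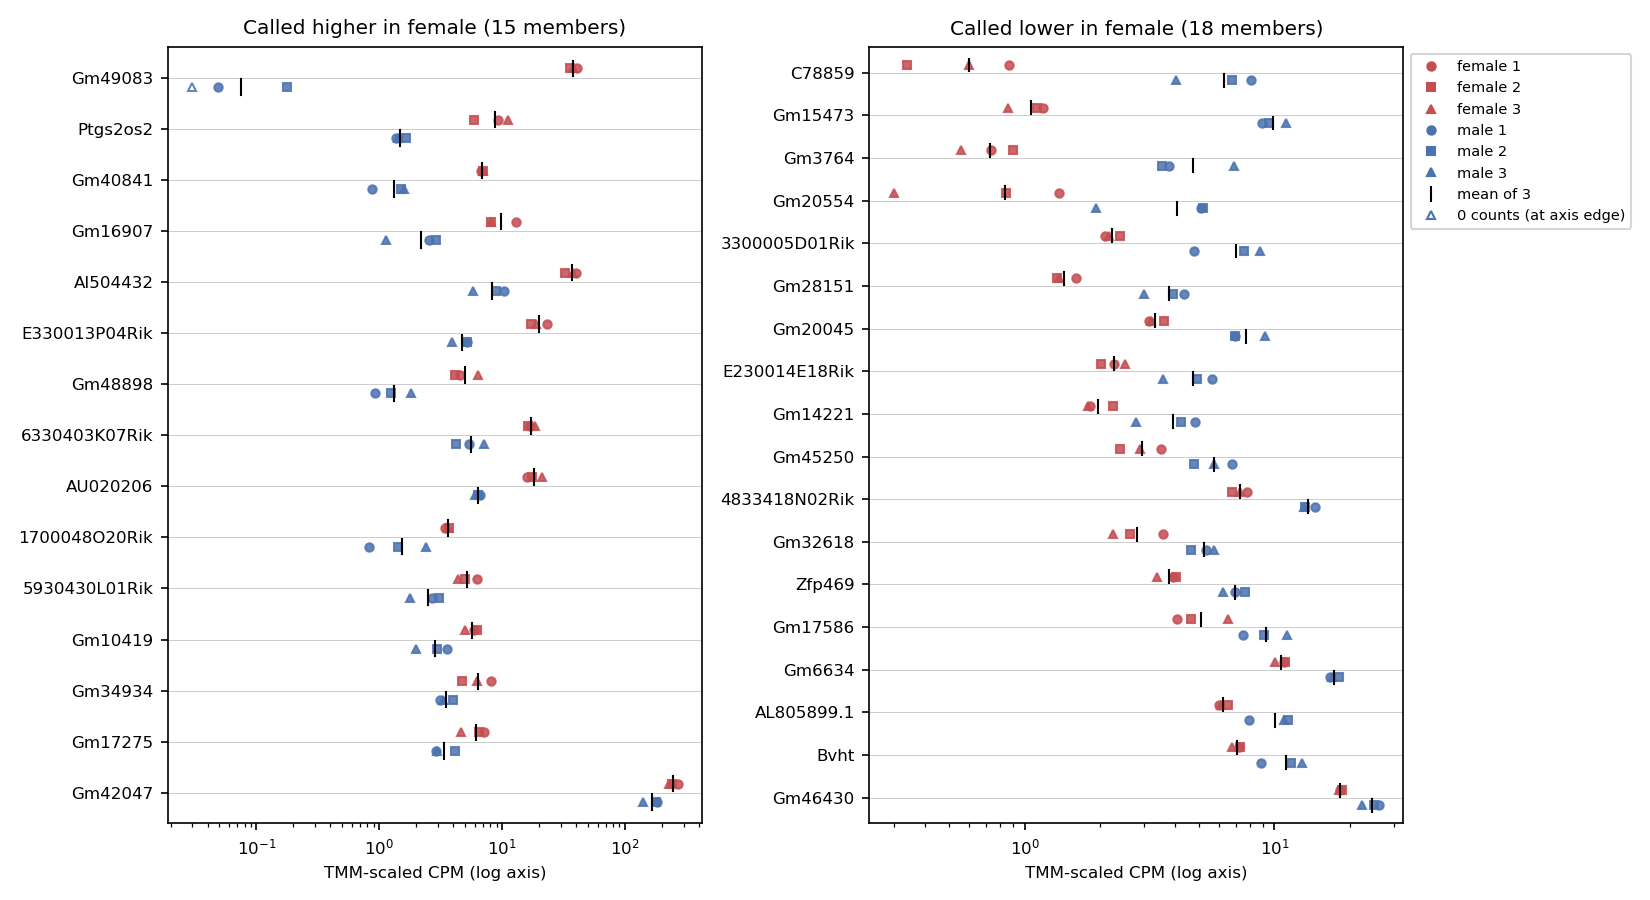
TMM-scaled CPM on a log axis for the 15 members called higher (left) and the 18 called lower (right) in female cells, 1 marker per library (female in red above male in blue, bar at the mean of 3), sorted by size of the fold change. Within each called member the female and male markers form separate groups, and Gm49083 has male libraries at 0.0484, 0.177 and 0 CPM (the 0 is hollow at the axis edge).

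Of the 18 members that fell in female cells, 3 span the hairpins of microRNAs. Across the members, 11 contain an annotated microRNA hairpin, and none of them was called higher, 3 were called lower and 8 were not called. That is 27.3% called, next to the 27.7% of all members and 18.3% of all tested genes. Of the 3 hosts that fell, C78859 and Gm3764 reached the mean of 50 counts through the male libraries, with mean counts of 13 and 15 in female cells and 130 and 93 in male cells. Of the 8 hosts with at least 50 counts in each sex, AL805899.1 alone was called (12.5%), against 17% of the tested genes that met the same condition. The mature microRNAs were not measured, since they are too short for these libraries, and a host row counts reads on its exons. For the 3 hosts that fell, the mature microRNAs of the well-known arms are printed 5′ to 3′ from RefSeq (GRCm38.p6), with the seed, bases 2 to 8, in capitals, because the seed sets which messages a microRNA pairs with.
mmu-miR-138-5p: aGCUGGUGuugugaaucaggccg
mmu-miR-9-5p: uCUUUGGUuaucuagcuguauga
mmu-miR-9-3p: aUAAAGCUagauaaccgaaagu
mmu-miR-31-5p: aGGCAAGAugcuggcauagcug
The 4 seeds differ from one another, and no other mature microRNA within the members shares any of them. mmu-miR-138-5p lies at chr8:94324312-94324334 on the plus strand, mmu-miR-9-5p at chr3:88215613-88215635 and mmu-miR-9-3p at chr3:88215652-88215673 on the plus strand, and mmu-miR-31-5p at chr4:88910614-88910635 on the minus strand.

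The host of Mir138-2, C78859 (chr8:94322158-94328100, plus strand), is a single-exon row of 5943 bases, so the hairpin lies inside the counted exon. It had 0.869, 0.338 and 0.599 CPM in the female and 8.04, 6.76 and 4.04 CPM in the male libraries. All males were above all females, with male replicate 3 the lowest male (log2 fold change -3.35 ± 0.39, adjusted p = 0.000257 in edgeR). miR-138 is best known from nerve cells, where it acts on dendritic spines. Gm3764 (chr3:88206813-88229959, plus strand) spans Mir9-1 and Mir3093, of which miR-9 is known for its role in neural progenitors. It had 0.731, 0.900 and 0.556 CPM in the female and 3.78, 3.53 and 6.89 CPM in the male libraries, with male replicate 3 the highest male (log2 fold change -2.70 ± 0.38, adjusted p = 0.00077 in edgeR). Both kept their call whichever library was left out.

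AL805899.1 (chr4:88909855-88938521, minus strand) spans Mir31, a microRNA studied in tumour cell invasion and lymphatic endothelium. It had 5.99, 6.53 and 6.11 CPM in the female and 7.94, 11.3 and 10.9 CPM in the male libraries. The difference was smaller than for the other 2 hosts (log2 fold change -0.70 ± 0.19, adjusted p = 0.0287 in edgeR), and the adjusted p ran from 0.0803 to 0.124 without any 1 female library or male replicate 2.

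The host of the best known microRNA cluster, Mir17hg, was not called, although its sexes did not overlap. It had 3.47, 3.71 and 3.72 CPM in the female and 5.33, 5.43 and 5.64 CPM in the male libraries (log2 fold change -0.59 ± 0.19, adjusted p = 0.0667 in edgeR). Its hairpins give 2 pairs of mature microRNAs that share a seed, which are printed to show the pairing.
mmu-miR-17-5p: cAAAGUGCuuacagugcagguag
mmu-miR-20a-5p: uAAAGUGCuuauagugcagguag
mmu-miR-19a-3p: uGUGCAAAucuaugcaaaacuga
mmu-miR-19b-3p: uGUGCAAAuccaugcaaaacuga
These lie between chr14:115043684-115043706 for mmu-miR-17-5p and chr14:115044358-115044380 for mmu-miR-19b-3p on the plus strand. The other uncalled hosts were Mirg of the imprinted Dlk1-Dio3 locus, with 14 hairpins, at 12.8, 12 and 10.8 CPM in the female and 7.80, 9.28 and 8.88 CPM in the male libraries (log2 fold change 0.45 ± 0.16, adjusted p = 0.0785 in edgeR, and 0.0468 without male replicate 3), Gm37233, 6720427I07Rik, Snhg20, Mir155hg, E130102H24Rik and 2900076A07Rik. Mir155hg, the host of a microRNA of activated immune cells, averaged 5.99 ± 1.15 CPM in the female and 6.0 ± 1.28 CPM in the male libraries (SD, n = 3 each). 6720427I07Rik, which spans Mirlet7d, had 5.94, 7.77 and 9.28 CPM in the female and 12.1, 8.97 and 11.8 CPM in the male libraries, and its ranges overlapped.

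**Figure D3:**
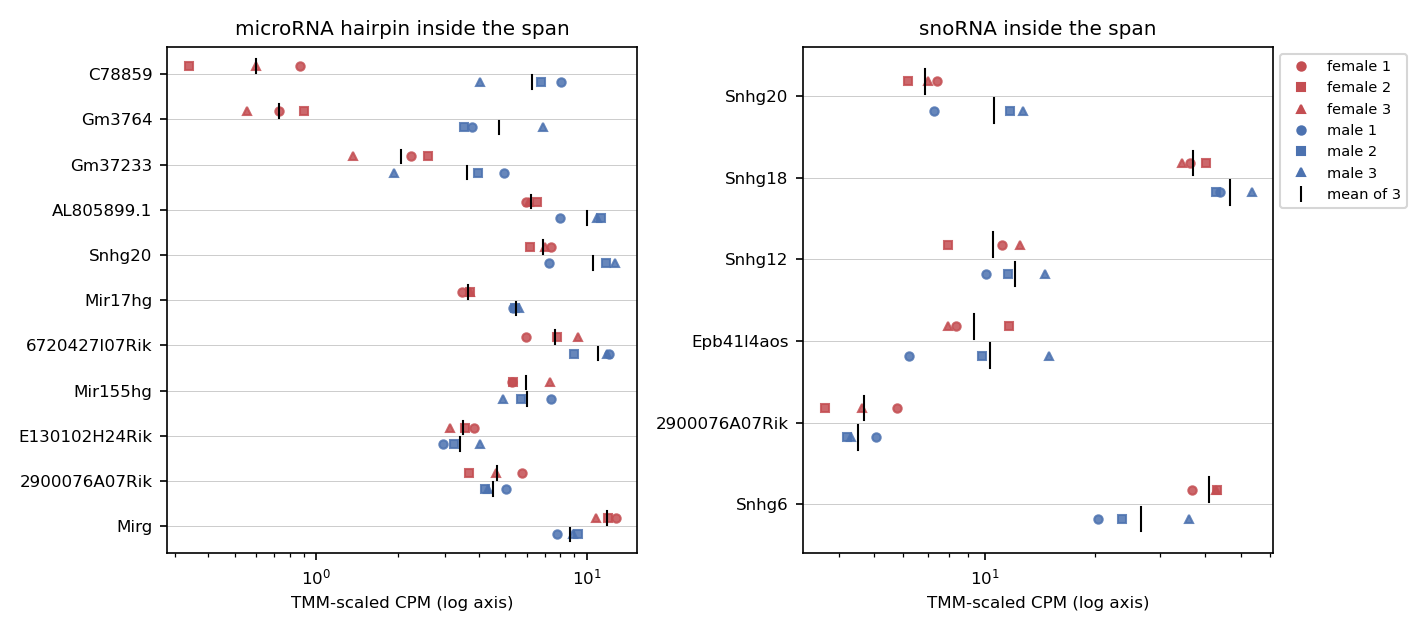
TMM-scaled CPM on a log axis for the 11 members with a microRNA hairpin in their span (left) and the 6 with a row of class snoRNA in their span (right), 1 marker per library (female in red above male in blue, bar at the mean of 3). C78859 and Gm3764 show the widest gaps, with females under 1 CPM and males from 3.53 to 8.04 CPM, and 2900076A07Rik appears in both panels because its hairpin Mir1839 is also annotated as a snoRNA.

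The largest fall outside the hosts was in Gm15473 (chr6:17058806-17064996, minus strand), which starts beside Tes, the gene of the focal adhesion protein testin. It had 1.19, 1.13 and 0.855 CPM in the female and 8.91, 9.5 and 11.1 CPM in the male libraries. Both groups were tight (log2 fold change -3.22 ± 0.23, adjusted p = 1.06e-05 in edgeR). 3300005D01Rik (chr17:5798657-5803240, plus strand) had 2.10, 2.42 and 2.18 CPM in the female and 4.75, 7.56 and 8.71 CPM in the male libraries, a wider spread among males (log2 fold change -1.65 ± 0.27, adjusted p = 0.002 in edgeR). Gm20554 (chr13:72626213-72628564, minus strand), beside the homeobox gene Irx2, had 1.37, 0.844 and 0.299 CPM in the female and 5.09, 5.17 and 1.94 CPM in the male libraries (log2 fold change -2.28 ± 0.55, adjusted p = 0.0165 in edgeR). Male replicate 3 was the male nearest to the females, and without it the log2 fold change was -2.62 (adjusted p = 3.53e-05 in edgeR).

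Gm28151 and Gm20045, both single-exon rows, averaged 1.44 ± 0.139 and 3.32 ± 0.245 CPM in female libraries, against 3.77 ± 0.685 and 7.69 ± 1.28 CPM in the male libraries (SD, n = 3 each). Their log2 fold changes were -1.39 and -1.21 (adjusted p = 0.00669 and 0.00242 in edgeR). Gm6634 (chr3:70772379-70807291, minus strand), far from any protein-coding gene, had 10.9, 11 and 10.1 CPM in the female and 16.7, 18.1 and 17 CPM in the male libraries, a small difference between tight groups (log2 fold change -0.70 ± 0.14, adjusted p = 0.00535 in edgeR). Bvht, named Braveheart for its part in heart lineage commitment of mouse embryonic stem cells, had 7.22, 7.26 and 6.75 CPM in the female and 8.86, 11.6 and 12.9 CPM in the male libraries (log2 fold change -0.65 ± 0.18, adjusted p = 0.0342 in edgeR). The remaining members that fell were E230014E18Rik, Gm14221, Gm45250, 4833418N02Rik, Gm32618, Zfp469, Gm17586 and Gm46430, with log2 fold changes from -1.04 for E230014E18Rik to -0.42 for Gm46430. Among the falls outside the hosts, Gm15473, 3300005D01Rik, Gm20554, Gm28151, E230014E18Rik and Gm14221 averaged under 50 counts in female cells. The choice of members bears on those calls.

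Each member was also set beside its nearest protein-coding gene, since position was no part of how the members were chosen. For 96 of the 119 that neighbour was tested, and the median distance over all 119 pairs was 3124 bases. Over the 96 pairs the log2 fold changes of member and neighbour had a Pearson r of 0.56 and a Spearman rho of 0.42, as a description across genes that share the same 6 libraries. Among the 22 called members with a tested neighbour, 12 neighbours were called (54.5%), against 14 of 74 neighbours of uncalled members (18.9%). In 11 of the 12 pairs both went the same way, 7 higher and 4 lower. In 6 of the 12 the member was under a mean of 50 counts in 1 sex, where the choice of members bears on the call. For members with at least 50 counts in each sex, 6 of 12 neighbours of called members were called (50%), against 12 of 65 for uncalled members (18.5%), with 5 of the 6 pairs going the same way and a Pearson r of 0.40 over 77 pairs. This restriction was added after the values were seen. The pairs overlapping on opposite strands had a Pearson r of 0.92 over 12 pairs, divergent pairs 0.53 over 25 and convergent pairs 0.22 over 17. The Spearman rho of these 3 classes was 0.94, 0.40 and 0.22. Same-strand pairs without overlap had a Pearson r of 0.67 over 20 pairs with the coding gene upstream and 0.47 over 17 with it downstream. Their Spearman rho was 0.16 and 0.49. Whether the counting used strand is not given in the sources used here, so in overlapping pairs the reads of the 2 genes cannot be told apart.

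Of the 7 pairs that were both higher, 3 overlap on opposite strands: Gm16907 with 2010111I01Rik, Gm17275 with the histone H3.3 gene H3f3a, and Gm10419 with Gm42517. Gm16907 also overlaps Fancc on its own strand, and Fancc was not set beside it. H3f3a had 209, 212 and 191 CPM in the female and 91.6, 114 and 119 CPM in the male libraries (log2 fold change 0.92 ± 0.12, adjusted p = 0.000603 in edgeR), close to the 0.87 of Gm17275 inside it. 2010111I01Rik averaged 107 ± 5.47 CPM in the female and 33.5 ± 4.29 CPM in the male libraries (SD, n = 3 each; log2 fold change 1.68 ± 0.12, adjusted p = 1.33e-05 in edgeR). Gm42517 averaged 10.9 ± 0.190 CPM in the female and 4.68 ± 1.46 CPM in the male libraries (log2 fold change 1.22 ± 0.23, adjusted p = 0.0045 in edgeR). All 3 moved with the member that overlaps them.

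The other 4 pairs do not overlap. Ptgs2, the gene of the inducible cyclooxygenase, lies 50816 bases from Ptgs2os2 and had 1016, 962 and 1045 CPM in the female and 407, 339 and 296 CPM in the male libraries (log2 fold change 1.54 ± 0.13, adjusted p = 3.82e-05 in edgeR). Kcna3 lies 1434 bases upstream of AI504432 on the same strand and had 8.59, 8.10 and 4.06 CPM in the female and 2.71, 2.12 and 0.399 CPM in the male libraries (log2 fold change 1.96 ± 0.52, adjusted p = 0.0272 in edgeR). Gdf7, a ligand gene of the bone morphogenetic protein family, lies 4224 bases upstream of Gm48898 on the same strand and averaged 2.24 ± 0.206 CPM in the female and 0.279 ± 0.199 CPM in the male libraries (SD, n = 3 each; log2 fold change 2.93 ± 0.55, adjusted p = 0.00454 in edgeR). In each of these the female libraries lay above all male libraries. Fam204a, 35995 bases from E330013P04Rik, rose less than the member (log2 fold change 0.58 ± 0.16, adjusted p = 0.0325 in edgeR).

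Of the 4 pairs that were both lower, 3 start back to back at a short distance. The starts of 4833418N02Rik and Ttc7, a gene of a tetratricopeptide repeat protein, are 72 bases apart. 4833418N02Rik had 7.77, 6.75 and 7.27 CPM in the female and 14.5, 13.3 and 13.2 CPM in the male libraries (log2 fold change -0.91 ± 0.15, adjusted p = 0.00212 in edgeR). Ttc7 had 15.9, 16.7 and 15.3 CPM in the female and 38.4, 41.2 and 39.4 CPM in the male libraries (log2 fold change -1.31 ± 0.12, adjusted p = 4.01e-05 in edgeR). Both genes had tight groups and no overlap between the sexes. Gm15473 and Tes start 153 bases apart, and Tes had 65.0, 64.4 and 73.5 CPM in the female and 114, 115 and 109 CPM in the male libraries (log2 fold change -0.74 ± 0.10, adjusted p = 0.000773 in edgeR). Gm20554 and Irx2 start 256 bases apart, and Irx2 had 2.88, 2.81 and 2.22 CPM in the female and 10.8, 11.6 and 13.0 CPM in the male libraries (log2 fold change -2.16 ± 0.19, adjusted p = 3.9e-05 in edgeR). The remaining pair is 3300005D01Rik with Snx9, a sorting nexin of endocytosis 38089 bases downstream, which averaged 283 ± 7.79 CPM in the female and 405 ± 20.0 CPM in the male libraries (SD, n = 3 each; log2 fold change -0.52 ± 0.10, adjusted p = 0.00527 in edgeR).

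The exception was Gm32618 with Sema5a, a semaphorin gene 82563 bases upstream. Gm32618 had 3.57, 2.65 and 2.27 CPM in the female and 5.33, 4.64 and 5.75 CPM in the male libraries, while Sema5a had 385, 284 and 307 CPM in the female and 185, 141 and 84.4 CPM in the male libraries. Their log2 fold changes were -0.89 ± 0.25 and 1.25 ± 0.25 (adjusted p = 0.0329 and 0.00646 in edgeR). A short distance did not go with a shared call in every pair. Sema5a also starts 148 bases from the start of the member Snhg18, on the opposite strand. Snhg18 had a log2 fold change of -0.33 ± 0.13 that was not called (adjusted p = 0.112 in edgeR), opposite in sign to that of Sema5a. Gm34934 and Gm17586 lie 97 and 168 bases from the starts of Samd4 and Mafg, and those neighbours had log2 fold changes of -0.13 and -0.29 that were not called (adjusted p = 0.559 and 0.108 in edgeR).

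**Figure D4:**
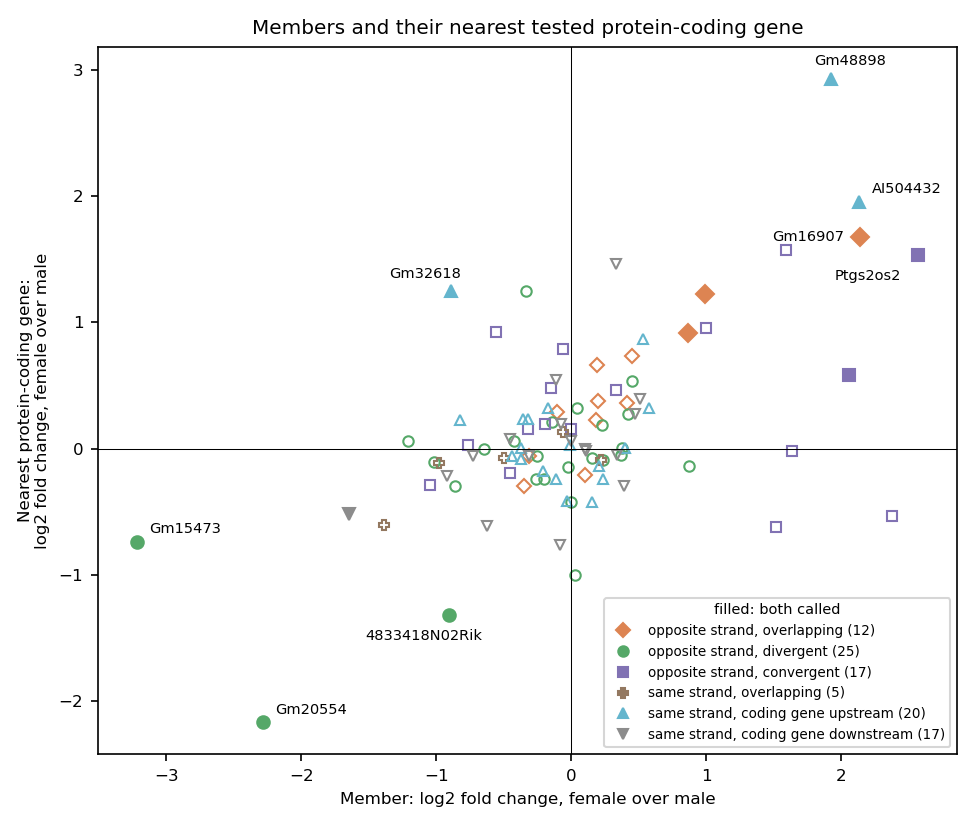
Log2 fold change of female over male for each of the 96 members (x axis) and its nearest tested protein-coding gene (y axis), with the marker shape giving their relative position and filled markers the 12 pairs in which both were called. Of the filled markers 11 lie at the upper right or lower left, and Gm32618 with Sema5a lies in the upper left.

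RefSeq promoter windows were found for 65 members, 72 windows in all, each from 250 bases before to 50 bases after a start. Those of 2 members that start back to back with a gene that fell too, and that of Ptgs2os2 as a member that rose, are printed 5′ to 3′ on the member's strand (GRCm38.p6), with motif matches in capitals. The windows are chr17:87282765-87283064 on the minus strand for 4833418N02Rik, chr13:72628515-72628814 on the minus strand for Gm20554 and chr1:150164899-150165198 on the minus strand for Ptgs2os2.
4833418N02Rik: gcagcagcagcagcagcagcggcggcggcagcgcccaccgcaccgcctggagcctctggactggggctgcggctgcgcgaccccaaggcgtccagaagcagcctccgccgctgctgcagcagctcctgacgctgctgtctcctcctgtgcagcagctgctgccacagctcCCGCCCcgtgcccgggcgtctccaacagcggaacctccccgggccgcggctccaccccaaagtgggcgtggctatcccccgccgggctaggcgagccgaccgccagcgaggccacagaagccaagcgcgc
Gm20554: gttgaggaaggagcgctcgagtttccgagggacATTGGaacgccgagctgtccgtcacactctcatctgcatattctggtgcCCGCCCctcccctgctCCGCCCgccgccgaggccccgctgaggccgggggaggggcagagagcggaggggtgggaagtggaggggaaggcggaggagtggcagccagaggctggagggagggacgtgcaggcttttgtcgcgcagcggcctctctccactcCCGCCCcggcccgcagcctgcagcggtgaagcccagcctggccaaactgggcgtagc
Ptgs2os2: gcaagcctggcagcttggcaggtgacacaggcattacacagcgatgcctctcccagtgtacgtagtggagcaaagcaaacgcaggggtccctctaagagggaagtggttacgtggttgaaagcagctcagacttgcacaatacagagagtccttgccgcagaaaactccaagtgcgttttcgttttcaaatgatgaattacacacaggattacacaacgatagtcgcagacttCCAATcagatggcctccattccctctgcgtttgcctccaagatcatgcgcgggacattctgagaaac
The start of Ttc7 lies inside the 4833418N02Rik window, which is 74.0% G or C, against 69.7% for Gm20554 and 50.7% for Ptgs2os2.

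The motifs searched on both strands were 5 plain words, the TATA box TATAAA, the CCAAT box CCAAT, the GC box GGGCGG, the AP-1 site TGANTCA and the CRE TGACGTCA. In the 4833418N02Rik window a GC box began at -80, counted in bases from the start. The Gm20554 window held GC boxes that began at -168, -152 and -7 and a CCAAT box at -217. The Ptgs2os2 window held a CCAAT box at -17. Over all member windows, CCAAT was present in 40.3%, GGGCGG in 38.9%, TATAAA in 18.1%, TGANTCA in 12.5% and TGACGTCA in 2.78%. Over all 32851 promoter windows of the same length the shares were 37.4%, 35.7%, 13.6%, 7.81% and 1.79% in the same order. A match is a description of the letters and shows no binding.

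The 6 members with a row of class snoRNA in their span were Snhg6, Snhg12, Snhg18, Snhg20, Epb41l4aos and 2900076A07Rik, and none was called with all libraries. Over all tested genes 18.3% were called, and 6 members are too few to set a share against that. Snhg18 had 36.3, 40.2 and 34.6 CPM in the female and 43.9, 42.8 and 53.5 CPM in the male libraries (log2 fold change -0.33 ± 0.13, adjusted p = 0.112 in edgeR). Snhg6 had 36.8, 42.9 and 42.9 CPM in the female and 20.4, 23.7 and 36.1 CPM in the male libraries (log2 fold change 0.62 ± 0.20, adjusted p = 0.0641 in edgeR). In both hosts the sexes did not overlap and male replicate 3 was the highest male, and without it Snhg6 was called higher (log2 fold change 0.89, adjusted p = 9.2e-06 in edgeR). Snhg20 averaged 6.87 ± 0.620 CPM in the female and 10.6 ± 2.92 CPM in the male libraries (SD, n = 3 each). Snhg12 averaged 10.5 ± 2.34 CPM in female and 12.1 ± 2.32 CPM in male cells, and Epb41l4aos 9.32 ± 2.03 CPM in female and 10.3 ± 4.41 CPM in male cells.

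Longer lists of known long noncoding RNAs, members or not and on any chromosome, had 5 to 17 tested genes each, of which 14.3% to 42.9% were called, next to 18.3% of all tested genes. Of the 17 tested snoRNA hosts 2 were higher (Snhg11 and 1810026B05Rik) and 2 lower (Snhg14 and Snhg17), and the median log2 fold change was -0.19. Of the 8 tested microRNA hosts on a list by name, Dnm3os was higher and C130071C03Rik lower. Of the 5 tested immune linked RNAs, Ptgs2os2 and the neighbouring Ptgs2os were higher, with Ptgs2os at 4.99 ± 1.41 CPM in the female and 1.35 ± 0.271 CPM in the male libraries (SD, n = 3 each; log2 fold change 1.88 ± 0.31, adjusted p = 0.00218 in edgeR). Gm14005, which RefSeq names Morrbid and which is known for the lifespan of myeloid cells in mice, averaged 3.65 ± 0.986 CPM in the female and 5.36 ± 0.326 CPM in the male libraries and was not called (adjusted p = 0.166 in edgeR).

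Of the 5 tested RNAs of nuclear bodies and structure, the X-linked Firre was higher and Malat1, Neat1, 2900097C17Rik and Tug1 were not called. Of the 7 tested RNAs linked to p53, growth and DNA damage, Meg3 was higher, and Pvt1, the neighbour of Myc, averaged 13.1 ± 1.31 CPM in the female and 14.2 ± 0.839 CPM in the male libraries (SD, n = 3 each). Of the 7 tested vascular and cardiac RNAs, 2 were higher (Meg3 and Dnm3os) and Fendrr was lower, and Carmn averaged 3.75 ± 0.304 CPM in the female and 3.23 ± 1.30 CPM in the male libraries, with a log2 fold change of 0.21 ± 0.31 that was not called and turned to -0.06 without male replicate 3. The member Bvht, called lower, was not on that list, so these counts leave it out. Of the 7 tested neighbours of homeobox and developmental loci, Fendrr alone was called, and the member Dubr had 33.1, 30.7 and 31.8 CPM in the female and 52.5, 43.2 and 34.8 CPM in the male libraries (log2 fold change -0.45 ± 0.15, adjusted p = 0.0756 in edgeR, and 0.000398 without male replicate 3). Of the 10 tested RNAs of imprinted loci, H19, Meg3 and Rian, which the choice of members left out, were higher and Snhg14 lower.

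Male replicate 3 was the lowest male library for 55 members (46.2%) and the highest for 38 (31.9%), and over all tested genes it was the lowest for 41.3% and the highest for 42.5%. Its difference from the mean of the other males on a log2(CPM + 0.5) scale had a Spearman correlation of -0.34 with member length over 119 members, and of -0.61 over the 11929 tested genes with a mean of at least 50 counts, as a description across genes of the same libraries. The same correlation over the members, each library set against the others of its sex, was 0.40, -0.15 and -0.25 for female replicates 1 to 3 and 0.24 and 0.20 for male replicates 1 and 2. For male replicate 3 the median difference was 0.34 for the 24 members under 1500 bases and -0.36 for the 39 members of at least 4000 bases. The fold change between the sexes itself had a Spearman correlation of 0.08 with length over the members.

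**Figure D5:**
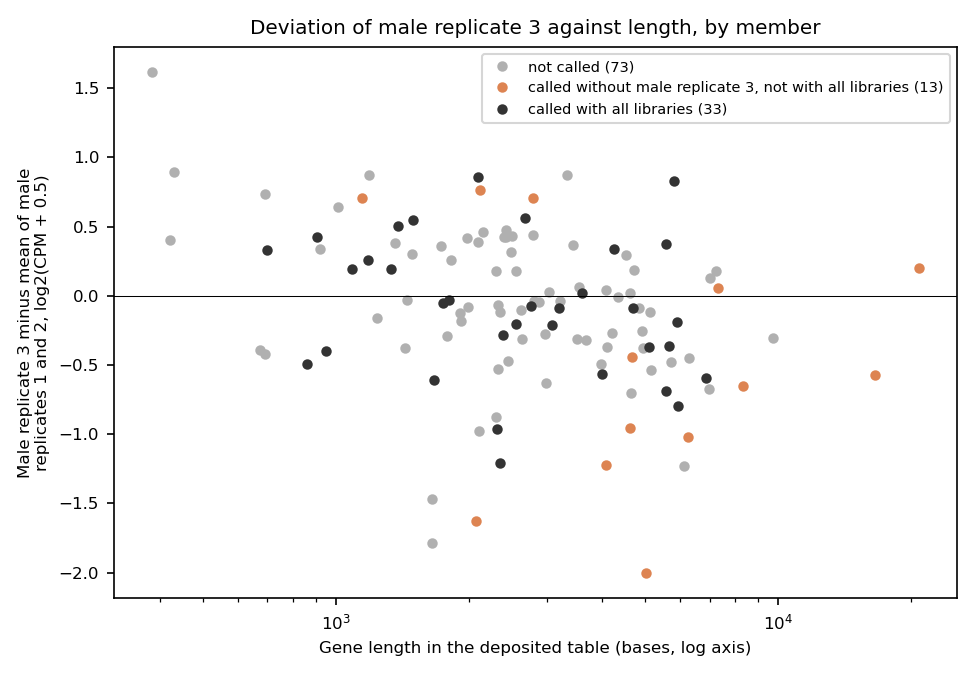
Difference of male replicate 3 from the mean of male replicates 1 and 2, on a log2(CPM + 0.5) scale, against gene length on a log axis, 1 point per member, with calls in colour. Short members lie mostly above 0 and long members mostly below, and the 13 members called without male replicate 3 but not with all libraries are drawn in orange.

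Without male replicate 3, calls over all 15462 tested genes rose above the 18.3% seen with all libraries, so a gain was not particular to the members. Among the members 46 were called in that fit, 19 higher and 27 lower, and all 33 calls were among them in the same direction. The 13 added were Snhg6, C130083M11Rik, 1700020I14Rik, Dubr, 2610035D17Rik, 5430416N02Rik, E430024I08Rik, 1810058I24Rik, Gm37233, 2610037D02Rik, Gm37494, Neat1 and Mirg. E430024I08Rik shows the pattern, with 22.5, 17.8 and 15.8 CPM in the female and 33.4, 27.0 and 15.3 CPM in the male libraries, so that male replicate 3 was below every female and the other males above all of them (log2 fold change -0.44 with all libraries and -0.69 without it, adjusted p = 0.314 and 0.00113 in edgeR).

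Of the 33 calls 17 held whichever library was left out, 9 higher and 8 lower, and 16 were lost in at least 1 of the 6 such fits. Among the 17 are Gm49083 and C78859, under a mean of 50 counts in 1 sex, and other such members. The choice of members bears on those calls. Gm46430, Gm14221 and 1700048O20Rik lost their call when any library other than male replicate 3 was left out, with edgeR adjusted p-values of 0.117 to 0.148, 0.0760 to 0.130 and 0.0994 to 0.155. Bvht and AL805899.1 lost it without any 1 female library or male replicate 2 (0.0923 to 0.117 and 0.0803 to 0.124). Gm10419 lost it in the same 4 fits (0.0521 to 0.103), E230014E18Rik without female replicate 1 or 2 or male replicate 1 or 2 (0.0656 to 0.0821), Gm32618 without female replicate 2 or 3 or male replicate 1 or 2 (0.0653 to 0.116), and Gm34934 without female replicate 1 or 3 or male replicate 1 or 2 (0.0747 to 0.174). Gm20554 lost it without female replicate 2 or 3 or male replicate 2 (0.0548 to 0.0758), Gm45250 without female replicate 2 or 3 or male replicate 1 (0.0709 to 0.0893), Gm17586 without female replicate 1 or 2 or male replicate 2 (0.0894 to 0.121), and Gm17275 without female replicate 1 or 2 or male replicate 1 (0.106 to 0.166). Zfp469 lost it without female replicate 3 or male replicate 2 (0.0526 and 0.0630), and 5930430L01Rik without female replicate 1 or 2 (0.122 and 0.0757), as did Gm42047 (0.0863 and 0.0664). No member changed direction among the calls shared with these fits.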

How the data were processed

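Poly-A RNA-seq of 6 libraries was analysed. The deposited values are counts: whole numbers of reads for each gene and library that the authors left unnormalized. The submitters' processing notes name HISAT2 2.0.5 and featureCounts 1.5. For the genome build and the strand setting the sources used here give no statement, and the labels' protocols do not settle whether the libraries mark strand. Positions are those of the deposited table, and 98.3% of its gene IDs found in GENCODE M21 (GRCm38) have the same position there. Reads shared by overlapping genes may be lost or misassigned.

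Members and role lists were chosen with earlier results of these data known. The test was edgeR 4.0.16 in R 4.3.3 (quasi-likelihood, robust, TMM, filterByExpr with minimum count 10), and adjusted p-values are Benjamini-Hochberg values over all 14932 tested genes. All 119 members were tested. The fit was checked on simulated counts. It was repeated with RLE or upper quartile scaling, with DESeq2 1.42.0 or limma-voom (limma 3.58.1, quality weights), without a filter, with a filter at a mean of 50 counts, with the replicate number as a block, with each library left out, and at an adjusted p under 0.01. Libraries of a sex were not duplicates (chi-square per degree of freedom 7.43 to 70.8). No batch is labelled.

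Named members were the 10 with the highest mean CPM, the 12 largest and 12 smallest log2 fold changes among called members, members on a role list, the 3 rows on each side of the count limit, and nearest protein-coding genes where both were called. Others, such as Bvht, AL805899.1, Gm6634, Gm10076, E430024I08Rik, Zfp469, Gm17586, Gm34934, Gm17275, Gm46430 and 6720427I07Rik, were chosen after their values were seen. Sequences come from RefSeq (GRCm38.p6).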

Additional observations from a re-analysis of the deposited data

How the results depend on the processing

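With all libraries 15 members were called higher and 18 lower. Under limma-voom these were 24 and 33, an adjusted p under 0.01 gave 9 and 8, and leaving out 1 library gave 10 to 19 higher and 9 to 27 lower. Over all tested genes, 1446 higher and 1287 lower became 3288 and 3283 with limma-voom, and 900 and 835 at an adjusted p under 0.01. With 1 library left out they became 967 to 2508 and 903 to 2543. Leaving out male replicate 3 gave the highest, 2508 and 2543 of 15462 tested genes. Causes were not tested. RLE scaling, DESeq2, limma-voom, the stricter count filter and the fit without male replicate 3 kept all 33 member calls, upper quartile scaling, no filter and the replicate block 32, and the other fits with 1 library left out 19 to 25. The mean member share of counts, 0.33% for the female and 0.31% for the male libraries, was 0.192% and 0.172% without Malat1 and Neat1.

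Signs turned only for uncalled members among those named. With limma-voom, log2 fold changes turned to -0.071 for Malat1, 0.0079 for Tmem250-ps, 0.073 for Epb41l4aos and -0.17 for Carmn, and with upper quartile scaling to 0.0065 for Mir155hg. Leaving out 1 library gave -0.092 to 0.21 for Malat1, -0.23 to 0.43 for Gm26917, -0.018 to 0.40 for 1810058I24Rik, -0.16 to 0.030 for Tmem250-ps, -0.41 to 0.21 for Epb41l4aos, -0.18 to 0.17 for Mir155hg and -0.062 to 0.50 for Carmn. The other 627 values of named members kept their direction, 29 newly passing the threshold and 42 no longer passing it.

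The replicate block gave 19 members higher and 19 lower. Libraries with the same number had correlations of deviations of 0.262, -0.032 and 0.18, so they were not treated as pairs, and the best match of female replicate 2 was male replicate 3 (0.166). Members near 50 counts have few reads, so small differences there were not detectable at this depth.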
